A study of Mus musculus with 23 samples.

Results

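Late maturation of the normal left ventricle was read by comparing wild-type (WT) mice at postnatal day 60 (P60), young adults, with WT mice at postnatal day 20 (P20), near weaning. The comparison takes the 11 arrays that the labels give as WT, 6 at P20 and 5 at P60, out of 23 arrays in the series. The P60 mice carry the replicate numbers 1, 3, 4, 5 and 6, and their values are listed in that order below. Each array held total RNA from the ventricle of a separate male mouse of a mixed S129/S4 and C57BL/6 background, fed on chow and kept under 12 h of light and 12 h of dark, with no treatment. The remaining 12 arrays come from mice of the same background that lack Efnb1 in cardiomyocytes (Efnb1cKO), 6 at each age. They share in the probe filter and in the estimate of spread behind every test. Their own levels enter only as a comparison near the end. The labels name neither the Cre line nor the hour at which hearts were taken.

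By weaning, most mouse cardiomyocytes have left the cell cycle, and the ventricle goes on growing by enlargement of the cells it has. Over the same weeks the tissue changes its fuels, its contractile and channel proteins, and the matrix that fibroblasts lay between the muscle cells. Thyroid hormone, the change from milk to chow and rising work load are known to accompany this late maturation.

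All levels below are log2 values of the processed spot intensity, scaled so that the 75th percentile of every array was equal, and differences are P60 minus P20 on that log2 scale. A gene is said to have risen, fallen or passed only where limma gave an adjusted p under 0.05 after Benjamini-Hochberg adjustment over all 35718 probes tested. Levels of different genes depend on their probes and are not set against each other. As the label of heart tissue requires, the cardiomyocyte markers Myh6, Tnnt2, Actn2, Ryr2, Myl2, Pln and Tnni3 were well above background on every WT array, and their summed level ran from 20.01 to 20.20 at P20 and 20.09 to 20.29 at P60. Because the ventricle was read in bulk, fewer cells of a type and less RNA per cell cannot be told apart in any result that follows.

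Some WT arrays stood apart in ways the groups do not explain. Dbp, a gene of the daily clock's output, ran from 14.40 to 14.80 in P20 replicates 1 to 4 but was 12.51 and 12.23 in replicates 5 and 6. At P60 it was 12.57, 11.77, 11.11, 11.88 and 14.74. Arntl, which peaks at the opposite hour, ran from 5.59 to 6.17 in P20 replicates 1 to 4, was 7.75 and 8.07 in replicates 5 and 6, and was 8.84, 9.44, 9.80, 9.31 and 7.07 at P60. Most P20 arrays were therefore in one clock state, most P60 arrays in the other, and P20 replicates 5 and 6 and P60 replicate 6 were the exceptions. P20 replicates 5 and 6 also stood apart from the other P20 arrays in genes described below, among them Pdk4, Angptl4, Mki67 and Top2a, and P60 replicate 6 held more atrial and adipocyte transcripts. Age and clock state moved together, so results that did not hold with a clock covariate (Arntl minus Dbp of each array), or without P20 replicates 5 and 6, are given with those values. Genes that passed and whose difference is given without such a value kept their call under both and moved by less than 1.5 times.

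Of the 35718 probes, 13084 passed (36.6%), 6614 higher and 6470 lower at P60, and 16081 had an unadjusted p under 0.05. Most of these changes were small. The median size was 1.27-fold, and 436 probes rose and 407 fell by more than 2-fold. With each gene read through its brightest probe, 4736 of 23133 genes rose (20.5%) and 4046 fell (17.5%), the median over all genes tested was 0.019, and 313 rose and 283 fell by more than 2-fold. These shares are the background for the gene lists below, which were chosen by function, 1 brightest probe per gene. The share of higher calls depended on the scaling: it was 50.6% here and 61.7% when arrays were scaled to their median, which moved the median of all probes from 0.0033 to 0.050.

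**Figure D1:**
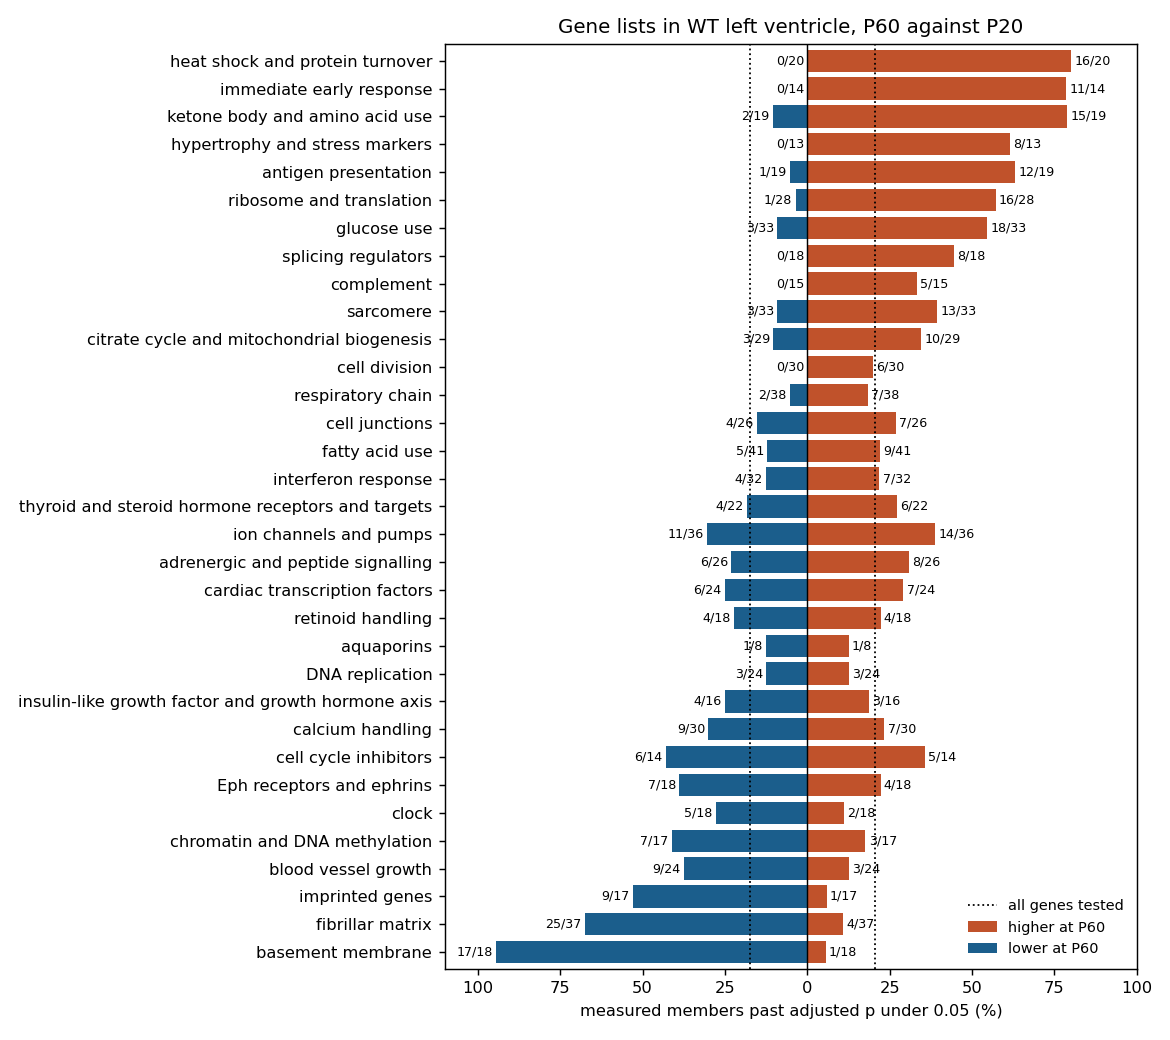
Share of measured members of each pathway list that passed the limma test (adjusted p under 0.05) as higher (right) or lower (left) at P60 than at P20 in WT ventricles, in percent of members, with counts beside the bars and dotted lines at the share of all genes that passed in each direction (20.5% higher, 17.5% lower). The longest bars to the right belong to heat shock, ketone body and amino acid, and immediate early genes (16 of 20, 15 of 19 and 11 of 14), and those to the left to basement membrane and fibrillar matrix genes (17 of 18 and 25 of 37).

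The largest rises and falls were in genes of very different kinds. Bdh1, the enzyme that interconverts the ketone bodies acetoacetate and 3-hydroxybutyrate, ran from 4.18 to 6.70 (median 6.53) at P20 and was 11.18, 11.37, 11.23, 11.01 and 12.01 at P60. The age groups did not overlap, and the lowest P20 values belonged to replicates 5 and 6. Its rise of 5.52 (SE 0.488, adjusted p = 3.1e-08) amounts to 45.8-fold, and it was still 4.75 without those arrays. The probe reads chromosome 16 from 31457249 to 31457308 of mm9.

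Among the other leading rises, Hal, which starts histidine breakdown, ran from 4.62 to 5.41 (median 5.24) at P20 and was 8.34, 7.91, 7.89, 8.15 and 8.06 at P60 (chromosome 10 from 92979135 to 92979194 of mm9), a rise of 2.94 (SE 0.154, adjusted p = 1.5e-11) or 7.68-fold, and of 1.80 with normexp background correction. Aqp8, a water and ammonia channel, ran from 5.43 to 6.27 (median 6.06) and was 8.91, 9.28, 9.58, 8.73 and 9.03, a rise of 3.14 (SE 0.161, adjusted p = 1.2e-11). Ifi205, an interferon-inducible gene well above background on 5 of 6 P20 arrays, ran from 3.003 to 4.91 (median 4.43) and was 8.09, 7.88, 7.48, 8.18 and 7.72, a rise of 3.62 (SE 0.318, adjusted p = 2.7e-08), or 1.84 with normexp background correction. In each of the 3 genes every P60 array lay above every P20 array. Tchhl1 was well above background on 1 of 6 P20 arrays and on all P60 arrays. It was at most 3.49 at P20 and at least 6.51 at P60 (adjusted p = 5.8e-09), and its difference has no set size, since the fitted 3.97 was 1.50 with normexp background correction.

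For 5 rises no P20 array measured the probe well above background, and only a lower bound holds. It sets the P60 mean against the higher of the probe's own P20 signal and the dimmest well measured signal of each array. Vgll2, a cofactor of TEAD transcription factors, was at least 4.51-fold higher at P60 (adjusted p = 1.8e-06). Pde11a, a cyclic nucleotide phosphodiesterase, was at least 3.54-fold higher (adjusted p = 4e-06), the long noncoding RNA Rmst at least 3.09-fold (adjusted p = 0.00044), Cpxm2 at least 2.60-fold (adjusted p = 1.6e-07) and D7Ertd443e at least 2.50-fold (adjusted p = 1.9e-06). Pde11a and D7Ertd443e each had 1 other tested probe, which did not pass.

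Among the falls, Lrat, which esterifies retinol for storage, ran from 4.63 to 6.86 (median 6.34) at P20 and was 1.33, 2.12, 2.88, 2.39 and 1.59 at P60, none of the latter well above background. It was at least 6.80-fold lower at P60 (adjusted p = 1.1e-08, chromosome 3 from 82696805 to 82696864 of mm9). Col26a1, a minor collagen, ran from 8.07 to 8.71 (median 8.28) and was 5.61, 5.79, 5.99, 5.56 and 4.92, a difference of -2.77 (SE 0.203, adjusted p = 2.1e-09). Adamts17, a secreted metalloprotease, ran from 6.66 to 7.65 (median 7.16) and was 4.84, 5.06, 5.06, 4.40 and 5.36, a difference of -2.24 (SE 0.197, adjusted p = 2.8e-08), or -1.11 with normexp background correction. The age groups of all 3 genes were apart.

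Aqp4, the main water channel of glia and a minor one of heart, fell by 2.54 (SE 0.1, adjusted p = 4.2e-13), and Rab44, a large Rab GTPase, was at least 4.30 at P20 and at most 3.41 at P60 (adjusted p = 2.6e-06), with its probe well above background on 1 of 5 P60 arrays, so that its fitted difference of -2.16 has no set size (-0.38 with normexp background correction). Not well above background on any P60 array were Cyp11a1, the first enzyme of steroid synthesis (at least 3.56-fold lower, adjusted p = 1.8e-06), Halr1 (at least 1.87-fold, adjusted p = 1.9e-08), Cyp26a1, which degrades retinoic acid (at least 1.60-fold, adjusted p = 3.7e-06), Gpr17, a receptor of oligodendrocyte precursors (at least 1.58-fold, adjusted p = 6.3e-07) and Sox11, a transcription factor of embryonic progenitors (at least 1.19-fold, adjusted p = 1.2e-09). Acta2, the smooth muscle actin that immature cardiomyocytes also make, ran from 10.90 to 11.20 (median 11.01) and was 8.82, 8.95, 8.78, 8.83 and 9.03, a difference of -2.14 (SE 0.11, adjusted p = 1.2e-11), and its brightest probe fell by 1.85. The clock gene Per3 completes the largest falls and is described with its list. No other tested probe of these genes passed in the opposite direction, but 1 probe each of Col26a1 (-0.043), Aqp4 (-0.0044) and Acta2 (-0.014) did not pass (adjusted p = 0.86, 0.99 and 0.93).

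Genes of the extracellular matrix fell together. Of 37 measured members of the fibrillar matrix list, 25 fell, 4 rose and 8 did not pass, with a median difference of -0.63. The ranges of the age groups were apart for 21 members that were lower at P60, against 10.2% of all genes. Col1a1, the alpha 1 chain of collagen I, ran from 13.40 to 14.14 (median 13.74) at P20 and was 12.34, 12.55, 12.52, 12.46 and 12.21 at P60, a difference of -1.36 (SE 0.128, adjusted p = 7.2e-08). Col3a1, the chain of the finer collagen III fibres, ran from 14.51 to 15.21 (median 14.75) and was 13.25, 13.61, 13.61, 13.52 and 13.21, a difference of -1.37 (SE 0.151, adjusted p = 5.7e-07). Eln, which encodes elastin, ran from 9.70 to 10.78 (median 9.94) and was 8.64, 8.96, 8.95, 8.88 and 8.02, a difference of -1.45 (SE 0.25, adjusted p = 0.00012). The age groups of all 3 genes were apart. Their highest P20 values came from replicates 5 and 6, and without those arrays the differences were -1.19, -1.19 and -1.14.

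Collagen V, which nucleates collagen I fibrils, fell in both measured chains, Col5a1 (-1.48, adjusted p = 8.7e-09) and Col5a2 (-1.35, adjusted p = 1.5e-07). Among genes of fibre assembly and crosslinking, falls were seen for the fibrillin gene Fbn2 (-1.19, adjusted p = 0.001, and -1.87 with the clock covariate), the lysyl oxidase gene Loxl2 (-0.94, adjusted p = 2e-07), the matricellular protein genes Postn (-0.68, adjusted p = 0.0039, and -0.46 without P20 replicates 5 and 6) and Sparc (-0.63, adjusted p = 2.3e-06), and the gelatinase gene Mmp2 (-0.86, adjusted p = 1.1e-07). Timp4, the cardiac inhibitor of metalloproteases, rose by 1.04 (SE 0.206, adjusted p = 0.00045) and was 13.24, 13.14, 13.05, 13.31 and 12.55 at P60, all above the P20 range of 11.79 to 12.34, and the rise was 0.53 with the clock covariate. The collagen prolyl hydroxylase gene P4ha2 rose by 0.38 (SE 0.0652, adjusted p = 9.5e-05). The other 2 rises, in the proteoglycan genes Vcan (0.37) and Bgn (0.30), did not pass with the clock covariate (0.24, adjusted p = 0.12, and 0.29, adjusted p = 0.08), and that of Bgn also ended without P20 replicates 5 and 6 (0.31, adjusted p = 0.061) and when P20 replicate 2 or 5 or P60 replicate 3, 4 or 6 was left out (differences of 0.27, 0.29, 0.29, 0.26 and 0.28).

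Genes of the basement membrane, which sheathes each cardiomyocyte and capillary, mostly fell. Of 18 members, 17 fell and 1 rose, with a median of -0.54. The falls numbered 14 with the clock covariate, 14 without P20 replicates 5 and 6, and 14 with only the WT arrays. Col4a5, a collagen IV chain, ran from 10.96 to 11.15 (median 11.09) at P20 and was 10.05, 10.07, 10.17, 10.01 and 9.93 at P60, a difference of -1.02 (SE 0.0545, adjusted p = 2e-11) with no overlap. Others that fell were the laminin genes Lamc1 (-0.78, adjusted p = 6.9e-09) and Lama2 (-0.62, adjusted p = 9e-08), the nidogen gene Nid1 (-0.65, adjusted p = 9.5e-07) and the agrin gene Agrn (-0.60, adjusted p = 9.7e-07). Col4a1 fell by 0.57 (adjusted p = 0.009) but differed by -0.38 (adjusted p = 0.084) without P20 replicates 5 and 6 and by -0.997 with the clock covariate. Lama5, a laminin alpha chain typical of mature vessels, was the member that rose, by 0.31 (SE 0.074, adjusted p = 0.0024).

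**Figure D2:**
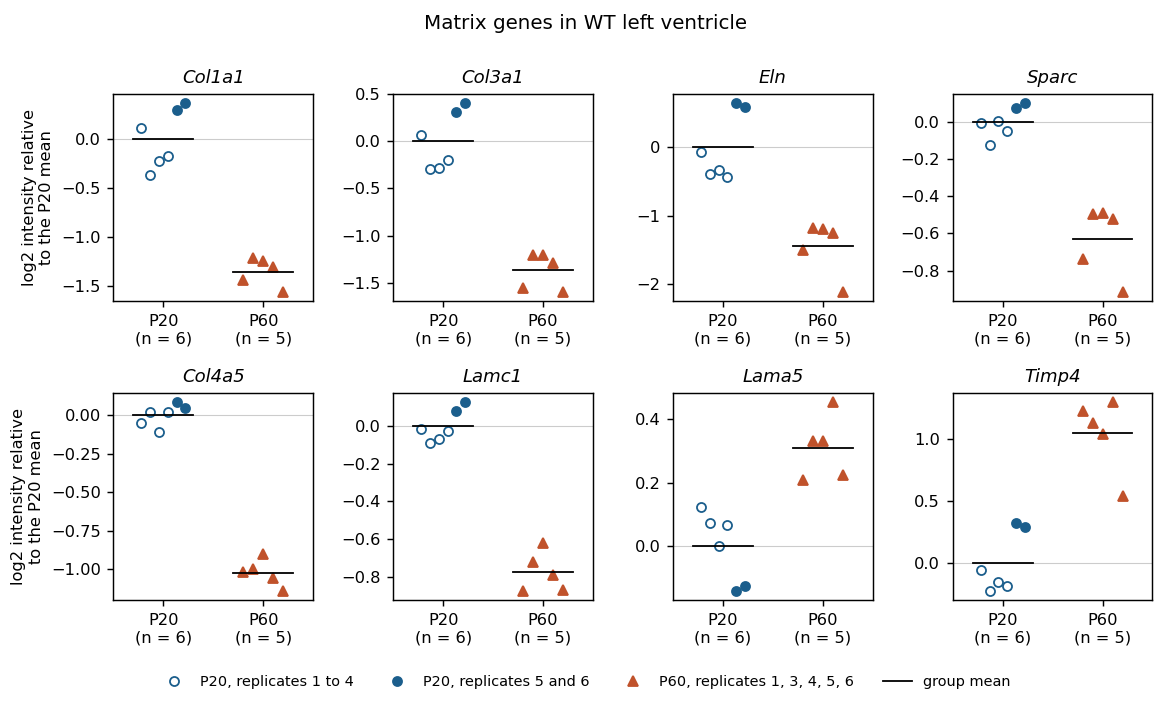
Log2 intensity of 8 matrix genes on each WT array, relative to the P20 mean of that gene, with P20 arrays as circles (replicates 5 and 6 filled), P60 arrays as triangles and horizontal bars at the group means. Col1a1, Col3a1, Eln, Sparc, Col4a5 and Lamc1 lie lower at P60 with no overlap, and Timp4 and Lama5 lie higher.

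Markers of fibroblasts and pericytes were also lower at P60. Of 7 fibroblast markers, 6 fell and 0 rose, and the part of cell number in the matrix result was not tested. Besides Col1a1, these were Lum (-0.75, adjusted p = 1.4e-08), Pdgfra (-0.51, adjusted p = 8.5e-05), Tcf21 (-0.41, adjusted p = 0.0002), Dpt (-0.20, adjusted p = 0.0099) and Ddr2 (-0.19, adjusted p = 0.0047, and -0.15, adjusted p = 0.054 with the clock covariate). Decorin (Dcn) differed by -0.04 without passing (adjusted p = 0.68). The summed fibroblast level ran from 16.42 to 16.62 at P20 and 16.11 to 16.42 at P60, ranges that touch. Of 6 pericyte markers 4 fell, Pdgfrb (-0.45), Cspg4 (-0.36), Kcnj8 (-0.33) and Notch3 (-0.21), with adjusted p of 0.00012, 0.00098, 0.00046 and 0.0049, and the pericyte sum ran from 15.13 to 15.21 at P20 and 14.99 to 15.10 at P60. Of 7 endothelial markers, Tie1 (-0.42, adjusted p = 0.0011) and Egfl7 (-0.35, adjusted p = 0.00024) fell and the rest did not pass. The number of endothelial falls was 5 with the clock covariate and 4 under quantile normalisation, and also 4 without P20 replicate 3, P60 replicate 3 or P60 replicate 4. The endothelial sum ran from 15.66 to 16.11 at P20 and 15.47 to 15.64 at P60, with no overlap. Of 5 smooth muscle markers, Acta2 and Myh11 (-0.24, adjusted p = 0.002) fell, Cnn1 rose by 0.50 (adjusted p = 0.0061) and Tagln and Mylk did not pass, with a median of 0.062. Their sum, which the bright Acta2 probe dominates, ran from 15.96 to 16.11 at P20 and 14.55 to 14.86 at P60, and another bright Acta2 probe differed by -0.014 (adjusted p = 0.93).

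Genes of blood vessel growth gave 3 rises and 9 falls among 24 members, with a median of 0.0067. The ligand and receptor of one pathway went opposite ways: apelin (Apln) rose by 0.52 (SE 0.0884, adjusted p = 9.9e-05), while its receptor gene Aplnr fell by 0.95 (SE 0.217, adjusted p = 0.0017). Lower at P60 were also the growth factor genes Mdk (-0.74, adjusted p = 0.00013), Ptn (-0.71, adjusted p = 0.00048) and Vegfc (-0.52, adjusted p = 0.00034), the angiopoietin receptor gene Tek (-0.42, adjusted p = 9.7e-05) and the arterial transcription factor gene Sox17 (-0.40, adjusted p = 0.00013).

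Cell division genes encode the kinases, cyclins, motors and spindle proteins that act in mitosis, and DNA replication genes those that act in S phase. In the cell division list, 6 of 30 members rose, a share near the 20.5% of all genes, and 0 fell, with a median of 0.47, which was -0.09 with the clock covariate and 0.25 with normexp background correction. Cenpf, a kinetochore protein, ran from 7.86 to 8.46 (median 8.10) at P20 and was 9.55, 9.01, 9.12, 9.46 and 9.71 at P60, a rise of 1.22 (SE 0.128, adjusted p = 2.8e-07). Ccnd1, the cyclin of G1, ran from 10.45 to 11.03 (median 10.71) and was 11.49, 11.52, 11.74, 11.37 and 11.63, a rise of 0.83 (SE 0.0881, adjusted p = 3.6e-07). Both genes were apart between the ages. The mitotic kinase gene Aurka rose by 0.54 (SE 0.166, adjusted p = 0.014) but differed by 0.23 (adjusted p = 0.29) with the clock covariate, and Aurkb, Tpx2 and Kif20a completed the 6.

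The rest of the list showed a split within the P20 group. Mki67, the proliferation marker, was 7.26, 6.998, 6.90 and 6.98 in P20 replicates 1 to 4, 8.36 and 8.56 in replicates 5 and 6, and 8.35, 8.37, 8.78, 8.23 and 7.88 at P60. Top2a, which untangles replicated chromosomes, was 5.98, 5.69, 5.38 and 5.58 in the first 4, 7.09 and 7.22 in replicates 5 and 6, and 6.90, 6.99, 7.54, 6.79 and 6.48 at P60. In both genes replicates 5 and 6 lay within or above the P60 range and the other 4 below it, and the differences of 0.81 and 0.79 did not pass (adjusted p = 0.073 and 0.13). Without replicates 5 and 6, the count was 16 higher and 0 lower, as it was with array weights, and Mki67 and Top2a differed by 1.29 (adjusted p = 0.0044) and 1.29 (adjusted p = 0.014). Mki67 also passed without P20 replicate 5 (0.98, adjusted p = 0.035) or 6 (1.02, adjusted p = 0.024) alone. With the clock covariate it was 3 higher and 3 lower, with Mki67 at 0.069 (adjusted p = 0.89) and Top2a at -0.044 (adjusted p = 0.94). Leaving out P20 replicate 6 gave 11 higher, while leaving out P20 replicate 1, 2 or 3 or P60 replicate 1, 3, 4 or 5 gave 3, each time without Aurkb, Tpx2 and Kif20a.

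**Figure D3:**
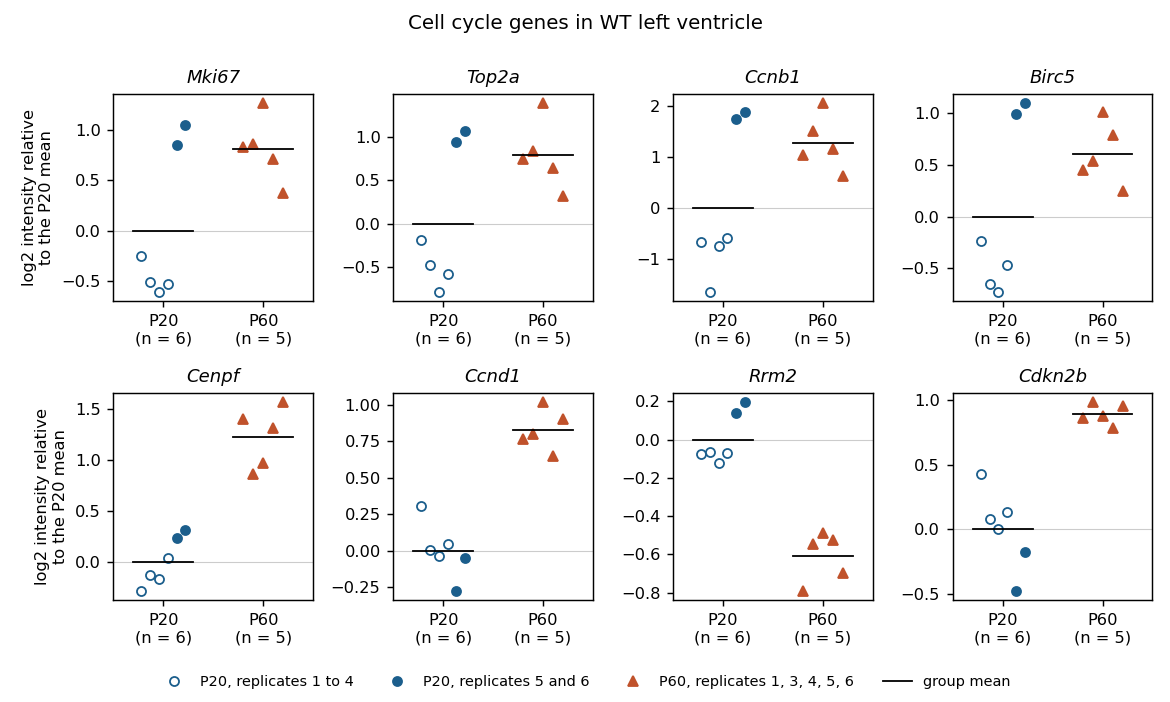
Log2 intensity of 8 cell cycle genes on each WT array, relative to the P20 mean of that gene, with P20 replicates 1 to 4 as open circles, P20 replicates 5 and 6 as filled circles, P60 arrays as triangles and horizontal bars at the group means. For Mki67, Top2a, Ccnb1 and Birc5 the filled circles lie among the P60 triangles and away from the other P20 arrays, for Cenpf and Ccnd1 all P60 arrays lie above all P20 arrays, Rrm2 lies lower at P60, and the inhibitor gene Cdkn2b lies higher.

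Replication genes gave 3 rises and 3 falls among 24, with a median of 0.055. Rrm2, the regulated subunit of ribonucleotide reductase, ran from 8.66 to 8.98 (median 8.71) at P20 and was 7.99, 8.23, 8.29, 8.25 and 8.08 at P60, a difference of -0.61 (SE 0.103, adjusted p = 9.2e-05) with no overlap. The helicase subunit gene Mcm7 fell by 0.29 (adjusted p = 0.0027), which with the clock covariate was a difference of -0.17 (adjusted p = 0.067). The polymerase gene Pola1 rose by 0.34 (SE 0.0854, adjusted p = 0.0035), or 0.52 with the clock covariate. The other 3 calls were smaller in size, and leaving out P60 replicate 6 left 1 rise, against 8 with the clock covariate.

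Inhibitors of the cell cycle changed in both directions. Of 14, 5 rose and 6 fell. The fetal and perinatal inhibitor gene Cdkn1c fell by 0.57 (SE 0.0556, adjusted p = 1e-07), and falls were seen for Btg1 (-0.46, adjusted p = 8.2e-05) and Cdkn1b (-0.30, adjusted p = 0.00025). Cdkn2b, an inhibitor of CDK4 and CDK6, ran from 5.05 to 5.95 (median 5.57) at P20 and was 6.39, 6.51, 6.40, 6.31 and 6.48 at P60, a rise of 0.89 (SE 0.124, adjusted p = 9.8e-06). The neighbouring Cdkn2a, well above background on 1 of 6 P20 arrays, was at most 3.35 at P20 and at least 4.48 at P60 (adjusted p = 0.0002), and the fitted difference of 1.80 was 0.40 with normexp background correction. Btg2 rose by 0.81 (SE 0.118, adjusted p = 1.8e-05). Cdkn1a, the target of p53 and of several stresses, was 11.78 and 11.67 in P20 replicates 5 and 6 against 9.53 to 10.13 in the other P20 arrays, and 11.74, 11.66, 12.03, 11.87 and 9.58 at P60. It was low in the 5 arrays with the highest Dbp and high in the other 6, and the difference of 0.86 did not pass (adjusted p = 0.21). With the clock covariate the sign turned, to -0.67 (adjusted p = 0.0051), while without P20 replicates 5 and 6 it was 1.47 (adjusted p = 0.036) and without P60 replicate 6 it was 1.31 (adjusted p = 0.042).

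Promoters of these genes were read from RefSeq (GRCm38.p6), 250 bases before to 50 after each start, because the members moved together between arrays. TTTGAA, the core of the cell cycle homology element, on either strand, lay in 73.1% of the 26 promoters of cell division genes (17 of 24 matched members) against 17.9% of all 32851 promoters, and in 11.5% of the 26 promoters of DNA replication genes (3 of 21 matched members). CCAAT, on either strand, lay in 76.9% of the cell division promoters (18 of the 24 members), in 65.4% of the replication promoters (14 of 21 members) and in 37.4% of all. The 150 bases before the start of 2 cell division genes are shown with CCAAT, or ATTGG where it lies on the other strand, in capitals, since Cdk1 and Top2a hold several copies.
Cdk1 (chr10:69352913-69353062, minus strand): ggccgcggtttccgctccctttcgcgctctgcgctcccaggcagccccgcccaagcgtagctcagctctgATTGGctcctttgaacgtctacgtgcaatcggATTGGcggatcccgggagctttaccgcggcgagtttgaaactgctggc
Top2a (chr11:99024190-99024339, minus strand): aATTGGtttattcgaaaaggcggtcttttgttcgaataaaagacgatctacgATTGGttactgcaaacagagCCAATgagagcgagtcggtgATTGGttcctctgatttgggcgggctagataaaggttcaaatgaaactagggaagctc

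Imprinted genes are read from a single parental copy, and many have growth functions in the fetus and newborn. Among 17 measured members, 9 fell, 1 rose and 7 did not pass, with a median of -0.39. Without P20 replicates 5 and 6 the count was 7 falls and 2 rises with a median of -0.17, and with array weights 9 and 3 with a median of -0.23. Igf2, the fetal insulin-like growth factor, ran from 9.998 to 10.91 (median 10.25) at P20 and was 8.48, 8.77, 8.68, 8.66 and 8.50 at P60, a difference of -1.77 (SE 0.135, adjusted p = 3.3e-09). Its neighbour H19, a noncoding RNA, ran from 10.65 to 11.84 (median 11.02) and was 9.86, 9.84, 9.87, 9.81 and 9.71, a difference of -1.33 (SE 0.179, adjusted p = 7e-06). Plagl1, a zinc finger factor over other imprinted genes, ran from 11.56 to 11.75 (median 11.67) and was 10.28, 10.24, 10.23, 10.105 and 10.27, a difference of -1.42 (SE 0.0487, adjusted p = 5.1e-14). None of the 3 genes overlapped between the ages.

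Other falls were in Peg3 (-1.73, adjusted p = 2.7e-08), the noncoding RNA Meg3 (-0.98, adjusted p = 7.8e-06) and the signalling adaptor gene Grb10 (-0.46, adjusted p = 0.00088), while Impact rose by 0.75 (SE 0.111, adjusted p = 2e-05), and a second member rose when P20 replicate 4 was left out. Dlk1 fell by 1.43 (SE 0.497, adjusted p = 0.028) but varied within each age, with P20 arrays between 5.97 and 7.66 and P60 arrays between 4.42 and 7.36. Its call ended with the clock covariate (-1.42, adjusted p = 0.075), without P20 replicates 5 and 6 (-1.43, adjusted p = 0.071), and when P20 replicate 2 or 3 or P60 replicate 3, 4 or 5 was left out (differences of -1.35, -1.28, -1.16, -1.16 and -1.37). In the wider growth factor axis, 3 of 16 members rose and 4 fell. Igf2bp3, a fetal RNA-binding protein gene, fell by 0.88 (SE 0.0852, adjusted p = 1e-07), as did the binding protein genes Igfbp3 (-0.39, adjusted p = 0.00059) and Igfbp7 (-0.32, adjusted p = 0.00095). The insulin receptor gene Insr rose by 0.39 (SE 0.0693, adjusted p = 0.00016). The growth hormone receptor gene Ghr rose by 0.27 (adjusted p = 0.0043) on its brightest probe, but another of its probes passed in the opposite direction, and the rise was 0.41 with the clock covariate and 0.16 without P20 replicates 5 and 6.

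Of 17 genes of chromatin and DNA methylation, 7 fell, 3 rose and 7 did not pass, with a median of -0.16. Tet1, which oxidises methylcytosine, ran from 8.76 to 8.96 (median 8.86) at P20 and was 7.32, 7.72, 7.36, 7.45 and 7.33 at P60, a difference of -1.43 (SE 0.0827, adjusted p = 7.9e-11). Dnmt3a, the de novo methyltransferase of postnatal cardiomyocytes, ran from 11.99 to 12.21 (median 12.06) and was 11.11, 11.19, 11.15, 11.14 and 11.03, a difference of -0.94 (SE 0.0465, adjusted p = 8.4e-12). Both were apart between the ages, and falls were also seen for Dnmt3b (-0.46, adjusted p = 4.2e-05) and Tet2 (-0.35, adjusted p = 0.0034, and -0.22 without P20 replicates 5 and 6). The maintenance methyltransferase gene Dnmt1 differed by 0.028 (adjusted p = 0.83) and Tet3 by 0.094 (adjusted p = 0.56), with another Tet3 probe called lower. Hmga1, an architectural chromatin protein gene, rose by 0.34 (adjusted p = 3.1e-05). The rises numbered 1 under quantile normalisation and 1 in the authors' values.

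Fuel use changed by pathway. Ketone body and amino acid genes rose in 15 of 19 cases, with 2 falls and a median of 0.33. The rises numbered 11 under quantile normalisation, 12 in the authors' values and 12 without P20 replicates 5 and 6, each with 2 falls. Next to Bdh1, Oxct1, which activates acetoacetate for use in muscle, rose by 0.38 (SE 0.116, adjusted p = 0.014) and differed by 0.19 (adjusted p = 0.13) without P20 replicates 5 and 6 and 0.59 with the clock covariate. The branched-chain transaminase gene Bcat2 ran from 11.72 to 12.41 (median 12.26) at P20 and was 12.77, 12.85, 12.90, 12.73 and 12.62 at P60, a rise of 0.63 (SE 0.123, adjusted p = 0.00039). Bckdha, a subunit of the branched-chain keto acid dehydrogenase, ran from 13.65 to 14.10 (median 14.03) and was 14.53, 14.58, 14.61, 14.55 and 14.57, a rise of 0.60 (SE 0.0632, adjusted p = 3.3e-07). Ivd, Acadsb and Aldh4a1, further enzymes of amino acid breakdown, rose by 0.51 (adjusted p = 4.3e-06), 0.60 (adjusted p = 3.1e-06) and 0.63 (adjusted p = 1.1e-05), none overlapping. Prodh, which starts proline breakdown, fell by 0.80 (SE 0.0833, adjusted p = 2.9e-07).

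Glucose genes also rose more often than they fell, 18 against 3 of 33, with a median of 0.17. The count was 12 against 4 in the authors' values and 13 against 4 under quantile normalisation. It was also 13 against 4 without P20 replicates 5 and 6, and 21 against 2 with scaling to the array median. Slc2a4, the insulin-regulated glucose transporter, ran from 15.50 to 15.90 (median 15.88) at P20 and was 16.19, 16.16, 16.04, 16.18 and 16.17 at P60, a rise of 0.38 (SE 0.0792, adjusted p = 0.00073) with no overlap. Slc2a1, the basal transporter, rose by 0.67 (SE 0.128, adjusted p = 0.00032), with P60 replicate 4 inside the P20 range. Hk2, the insulin-responsive hexokinase, rose by 0.44 (adjusted p = 2.2e-05), and Pfkfb2, which makes the activator of phosphofructokinase in heart, by 0.84 (adjusted p = 5.2e-06). Ppp1r3c, which targets a phosphatase to glycogen, rose by 0.99 (SE 0.114, adjusted p = 9.9e-07), and Gaa, the lysosomal glycogen hydrolase, by 0.55 (adjusted p = 2.6e-07). Of the kinases that inhibit pyruvate dehydrogenase, Pdk1 and Pdk2 rose by 0.47 (adjusted p = 1.3e-06) and 0.32 (adjusted p = 4.5e-05), Pdk3 fell by 0.47 (adjusted p = 0.00046), and the fasting-induced Pdk4 differed by -0.37 without passing (adjusted p = 0.43) and by -1.11 (adjusted p = 0.008) with the clock covariate. Pdk4 was 15.80 and 15.97 in P20 replicates 5 and 6 against 14.25 to 14.79 in replicates 1 to 4. Pfkp, the platelet isoform of phosphofructokinase, fell by 0.43 (adjusted p = 0.00076) and differed by -0.68 with the clock covariate.

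Fatty acid genes were mixed. Of 41, 9 rose and 5 fell, shares near or below those of all genes, with a median of 0.082. Ppara, the nuclear receptor over fatty acid oxidation, ran from 11.85 to 12.19 (median 12.06) at P20 and was 12.83, 12.64, 12.61, 12.94 and 12.60 at P60, a rise of 0.67 (SE 0.0934, adjusted p = 1.1e-05). Lpl, which releases fatty acids from lipoproteins, ran from 16.35 to 16.75 (median 16.68) and was 17.06, 17.13, 17.19, 17.19 and 17.002, a rise of 0.52 (SE 0.0723, adjusted p = 1.1e-05). Both were apart between the ages, as was the acyl-CoA synthetase gene Acsm5, which rose by 1.38 (SE 0.145, adjusted p = 3.2e-07). Acadm and Hadhb, enzymes of the oxidation spiral, rose by 0.19 (adjusted p = 0.00072) and 0.25 (adjusted p = 0.0012), and both calls ended under quantile normalisation (0.086, adjusted p = 0.17, and 0.15, adjusted p = 0.12) and in the authors' values. Of the other enzymes of the spiral in the list, Acadl, Acadvl, Acads, Hadha, Hadh and Acaa2 did not pass, with differences from -0.13 to 0.17. Acaa2 passed as lower in 13 of 28 alternatives, with -0.21, adjusted p = 0.0086 with the clock covariate, and Acads as higher in 8, with 0.21, adjusted p = 0.045 without P20 replicates 5 and 6.

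The uncoupling protein genes Ucp2 (-1.26, adjusted p = 2.8e-06) and Ucp3 (-1.06, adjusted p = 7.4e-05) fell. Cpt1a, the carnitine transferase isoform of liver and young heart, fell by 0.36 (SE 0.0868, adjusted p = 0.0026), and Angptl4, the inhibitor of lipoprotein lipase, fell by 1.54 (SE 0.42, adjusted p = 0.0064). Angptl4 was 13.37 and 13.81 in P20 replicates 5 and 6 and 11.69 to 12.11 in replicates 1 to 4, and without the former it differed by -0.98 (adjusted p = 0.064). The counts for fatty acid genes were 3 higher and 7 lower under quantile normalisation, 3 higher and 7 lower in the authors' values, 16 higher and 5 lower with array weights, 6 higher and 9 lower with the clock covariate and 14 higher and 4 lower without P20 replicates 5 and 6, so the balance of rises and falls in this list did not hold.

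Mitochondrial genes changed little. In the citrate cycle and biogenesis list, 10 of 29 rose and 3 fell. The nuclear receptor genes Esrrg and Esrrb, which drive oxidative genes, rose by 0.58 (adjusted p = 1.4e-06) and 0.57 (adjusted p = 1.1e-06), Idh2 of the citrate cycle by 0.38 (adjusted p = 1.7e-07), and Polg, the mitochondrial DNA polymerase, by 0.34 (adjusted p = 0.00018), while the coactivator gene Ppargc1b fell by 0.36 (adjusted p = 0.0054) and with the clock covariate differed by -0.23 (adjusted p = 0.096). Quantile normalisation gave 6 higher and 6 lower, and the falls numbered 1 without P20 replicate 1, P20 replicate 5 or P60 replicate 6. Of 38 respiratory chain subunits, 7 rose and 2 fell, shares below those of all genes, with a median of 0.076 and all members between -0.25 and 0.23. Cox6a1, a broadly expressed subunit of complex IV, fell by 0.25 (SE 0.049, adjusted p = 0.00049). The balance turned with the scaling: it was 3 higher and 4 lower under quantile normalisation, 2 higher and 5 lower in the authors' values and 16 higher and 1 lower with scaling to the array median. The count of rises was 11 with the replicate block, 3 with place on the slide as a block, 2 with the clock covariate and 1 without P20 replicates 5 and 6. It was 3 without P60 replicate 5, 2 without P60 replicate 4 and 3 without P20 replicate 5.

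**Figure D4:**
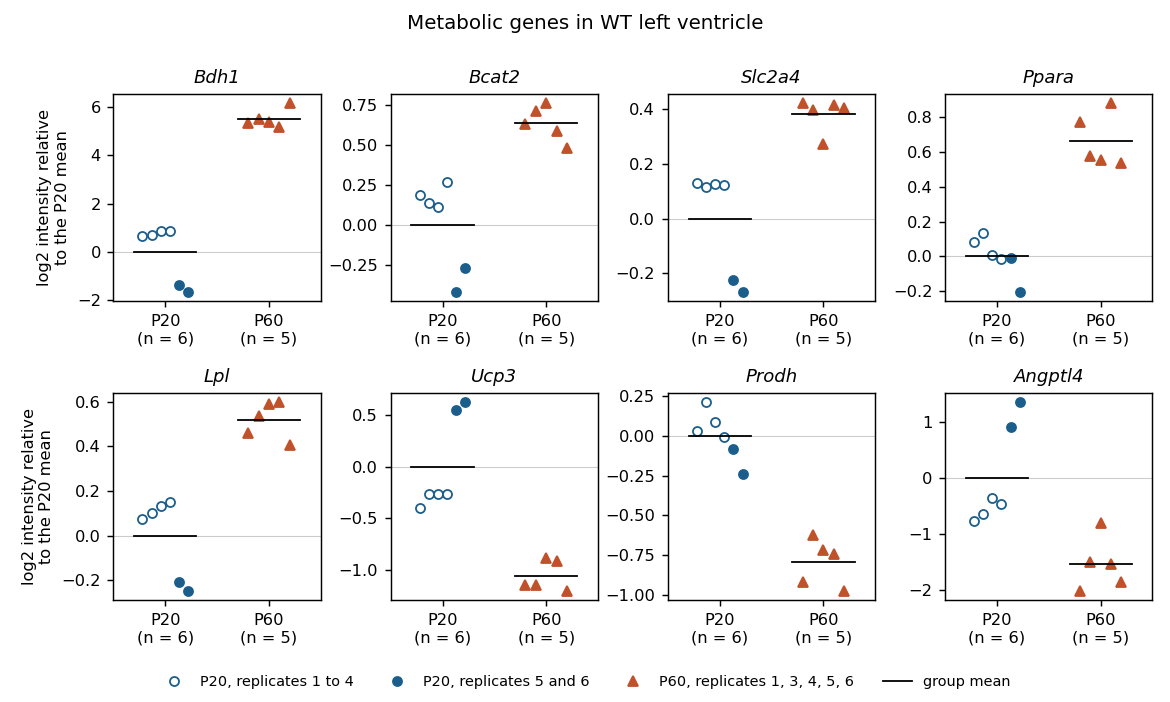
Log2 intensity of 8 metabolic genes on each WT array, relative to the P20 mean of that gene, with P20 replicates 1 to 4 as open circles, P20 replicates 5 and 6 as filled circles, P60 arrays as triangles and horizontal bars at the group means. Bdh1, Bcat2, Slc2a4, Ppara and Lpl lie higher at P60 with no overlap, Ucp3, Prodh and Angptl4 lie lower, and the filled circles stand apart from the open ones in Bdh1 and Angptl4.

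Among contractile genes, 1 probe of the slow myosin gene gave the largest rise. Myh7, the beta myosin heavy chain, ran from 10.67 to 11.18 (median 11.05) at P20 and was 13.76, 13.65, 13.42, 13.92 and 13.41 at P60 on probe A_55_P2093232 (chromosome 14 from 55589581 to 55589640 of mm9). The groups were far apart, with a rise of 2.62 (SE 0.104, adjusted p = 4.2e-13) or 6.13-fold. Probe A_65_P07389 of the same gene differed by 0.27 (adjusted p = 0.084), so the probes disagree and the rise rests on the first. Myh6, the alpha chain that dominates in adult mouse ventricle, differed by 0.12 (adjusted p = 0.18). Tnni1, the slow skeletal troponin I that the fetal heart uses, ran from 7.32 to 7.86 (median 7.68) and was 7.09, 7.06, 7.03, 6.99 and 7.01, a difference of -0.60 (SE 0.107, adjusted p = 0.00017), and Tnni3, its adult cardiac replacement, differed by 0.17 (adjusted p = 0.025), past the threshold but not when P20 replicate 5 or 6 or P60 replicate 1, 4 or 5 was left out (0.14, 0.16, 0.16, 0.16 and 0.15) or both of P20 replicates 5 and 6 were (0.11, adjusted p = 0.15).

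Of 33 sarcomere members, 13 rose and 3 fell. The M-band gene Myom2 rose by 0.55 (adjusted p = 4.9e-06), the actin filament proteins Lmod2, Neb and Xirp2 by 0.64 (adjusted p = 0.00017), 0.97 (adjusted p = 0.0019) and 1.01 (adjusted p = 2.5e-07), and troponin C (Tnnc1) by 0.34 (adjusted p = 0.00027). Falls beside Tnni1 were in Nebl (-0.26, adjusted p = 8.3e-05, on its brightest probe, with another of its probes called higher) and Myom1 (-0.14, adjusted p = 0.012). Under quantile normalisation the count was 10 higher and 6 lower.

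The hypertrophy and stress list held 8 rises and 0 falls among 13, with a median of 0.81. The 8 include Myh7, on the single probe described above. There was 1 fall with the clock covariate, without P20 replicates 5 and 6, under quantile normalisation, in the authors' values and with array weights. Without P20 replicates 5 and 6 the rises numbered 7 and the median was 0.62. Nppb, which encodes the B-type natriuretic peptide, ran from 12.53 to 14.09 (median 13.84) at P20 and was 15.74, 15.42, 15.54, 15.50 and 14.99 at P60, a rise of 1.90 (SE 0.245, adjusted p = 4.1e-06). Its lowest P20 values came from replicates 5 and 6, and the rise was 1.48 without them. Gdf15, a circulating stress cytokine, ran from 6.25 to 6.71 (median 6.57) and was 8.46, 8.91, 8.70, 9.03 and 8.22, a rise of 2.13 (SE 0.159, adjusted p = 2.7e-09).

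Ankrd1, a titin-associated transcriptional cofactor, ran from 12.94 to 14.02 (median 13.61) and was 14.88, 14.95, 14.89, 14.73 and 15.62, a rise of 1.45 (SE 0.183, adjusted p = 3.4e-06). These 3 genes did not overlap between the ages, nor did Rcan1, the calcineurin target (rise of 1.20, adjusted p = 8.5e-06, and 0.72 with the clock covariate), Ctgf (rise of 1.07, adjusted p = 1.6e-06) and Nmrk2 of NAD synthesis (rise of 0.81, adjusted p = 0.0006). Nppa, the atrial natriuretic peptide gene, rose by 0.76 (SE 0.296, adjusted p = 0.049), at the edge of the threshold, and by 1.301 with the clock covariate. P60 replicate 6, the array with the most atrial transcripts, held its highest value, 16.71, and P20 replicates 5 and 6 its lowest, 14.45 and 14.80. Its call ended without P20 replicates 5 and 6 (0.33, adjusted p = 0.37) and without P60 replicate 6 (0.64, adjusted p = 0.12), and also without P20 replicate 3, 5 or 6 or P60 replicate 1, 3, 4 or 5 (differences of 0.81, 0.55, 0.62, 0.75, 0.79, 0.81 and 0.80).

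Calcium handling genes gave 7 rises and 9 falls among 30, with a median of 0.0096. The balance depended on the scaling, with 5 higher and 12 lower under quantile normalisation, 4 higher and 11 lower in the authors' values and 8 higher and 3 lower with scaling to the array median. Casq1, the skeletal calsequestrin, ran from 10.54 to 11.12 (median 10.83) at P20 and was 9.45, 9.17, 9.37, 9.59 and 8.77 at P60, a difference of -1.56 (SE 0.135, adjusted p = 2.4e-08), whereas the cardiac Casq2 differed by -0.097 (adjusted p = 0.21), and passed as lower under quantile normalisation (-0.20, adjusted p = 0.0044) and in the authors' values (-0.21, adjusted p = 0.0016). Cacna1g, the T-type calcium channel of the immature heart and of conduction tissue, ran from 9.33 to 9.68 (median 9.50) and was 8.65, 8.41, 8.46, 8.35 and 8.60, a difference of -1.01 (SE 0.0692, adjusted p = 8.2e-10). S100a1, which increases the activity of the calcium pump, ran from 13.80 to 14.12 (median 13.99) and was 14.44, 14.58, 14.40, 14.57 and 14.52, a rise of 0.52 (SE 0.0625, adjusted p = 1.8e-06). The ages were apart in Casq1, Cacna1g and S100a1.

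At the calcium release unit, Hrc, a binding protein of the store, differed by 0.31 (adjusted p = 0.0014), and Cav3, of caveolae and forming transverse tubules, fell by 0.41 (SE 0.0686, adjusted p = 8.1e-05). Jph2, which ties the tubules to the store, rose by 0.15 (adjusted p = 0.016) and differed by 0.11 (adjusted p = 0.12) with the clock covariate. The number of falls was 4 without P20 replicates 5 and 6 and 4 without P60 replicate 1.

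Ion channel genes changed in both directions, 14 higher and 11 lower of 36. Scn4b, a beta subunit of the sodium channel, ran from 6.67 to 7.51 (median 7.10) at P20 and was 8.86, 9.11, 9.32, 8.97 and 9.70 at P60, a rise of 2.12 (SE 0.197, adjusted p = 6.2e-08). Kcne1, the beta subunit of the slow delayed rectifier, ran from 12.32 to 13.09 (median 12.59) and was 11.22, 11.01, 10.88, 10.97 and 10.33, a difference of -1.77 (SE 0.177, adjusted p = 1.5e-07). Neither gene overlapped between the ages, and P60 replicate 6 had the highest Scn4b and the lowest Kcne1.

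The sodium channel gene Scn10a also rose, by 0.87 (adjusted p = 0.00019). Among potassium channels, Kcnd3 of the transient outward current rose by 0.21 (adjusted p = 0.004) and Kcna5 of the ultrarapid current by 0.93 (adjusted p = 0.00057), or 0.45 with the clock covariate. Falls were seen in the inward rectifier gene Kcnj2 (-0.47, adjusted p = 0.00057), in Kcnh2 of the rapid delayed rectifier (-0.47, adjusted p = 0.0013, and -0.20 with the clock covariate) and Kcne1l (-0.75, adjusted p = 3.3e-05). The pacemaker channel gene Hcn4 differed by -0.044 (adjusted p = 0.81). Of the gap junction genes, Gjc1, which marks early and conduction myocardium, fell by 0.43 (adjusted p = 7e-05), and Gja1 rose by 0.32 (adjusted p = 0.0048) on its brightest probe while another of its probes passed lower.

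In adrenergic and peptide signalling, 8 of 26 members rose and 6 fell. Maob, which degrades amines, ran from 10.05 to 10.56 (median 10.37) at P20 and was 11.39, 11.35, 11.41, 11.52 and 11.63 at P60, a rise of 1.13 (SE 0.104, adjusted p = 5.7e-08). Among receptors, the alpha 1A adrenoceptor gene Adra1a rose by 0.66 (SE 0.102, adjusted p = 3.4e-05) and the beta 1 adrenoceptor gene Adrb1 fell by 0.51 (SE 0.12, adjusted p = 0.002), although Adrb1 differed by -0.22 (adjusted p = 0.061) with the clock covariate. The endothelin gene Edn1 fell by 0.70 (SE 0.0912, adjusted p = 5.1e-06).

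Of 26 cell junction genes, 7 rose and 4 fell, shares near those of all genes, with a median of 0.012. Nrap, which anchors the sarcomere at the intercalated disc, ran from 14.75 to 14.92 (median 14.88) at P20 and was 15.48, 15.46, 15.49, 15.46 and 15.44 at P60, a rise of 0.62 (SE 0.0382, adjusted p = 2e-10). Desmoplakin (Dsp) ran from 14.27 to 14.50 (median 14.37) and was 14.78, 14.82, 14.89, 14.91 and 14.94, a rise of 0.48 (SE 0.0517, adjusted p = 3.6e-07). Both were apart, as were plakophilin 2 (Pkp2, 0.32, adjusted p = 1.5e-05), filamin C (Flnc, 0.44, adjusted p = 7.5e-06) and N-cadherin (Cdh2, 0.36, adjusted p = 6.7e-05, with another Cdh2 probe called lower). The falls were in the tight junction scaffold gene Tjp1 (-0.39, adjusted p = 1.6e-05), the dystrophin gene Dmd (-0.30, adjusted p = 0.00016) and the laminin receptor genes Itga7 (-0.28, adjusted p = 1.3e-05) and Itgb1 (-0.21, adjusted p = 0.0027). The number of falls was 7 under quantile normalisation, 8 in the authors' values and 8 with the clock covariate.

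Eph receptors and their ephrin ligands signal between touching cells. Among 18 measured, 4 rose and 7 fell, with a median of -0.24, which was 0.027 with normexp background correction and -0.095 in the authors' values. Of the ligands, Efnb1 ran from 11.61 to 12.35 (median 11.76) at P20 and was 11.37, 11.42, 11.43, 11.43 and 11.18 at P60, a difference of -0.54 (SE 0.117, adjusted p = 0.00095), and its highest P20 values came from replicates 5 and 6, without which it differed by -0.33. Falls were also seen in Efnb2 (-0.70, adjusted p = 9.5e-07), Efna5 (-0.48, adjusted p = 9.2e-06) and Efna1 (-0.40, adjusted p = 0.00044), while Efnb3 rose by 0.45 (adjusted p = 0.0025), or 0.68 with the clock covariate. Of the receptors, Epha4 ran from 8.88 to 9.39 (median 9.17) and was 10.39, 10.47, 10.28, 10.41 and 10.55, a rise of 1.29 (SE 0.134, adjusted p = 2.4e-07). Ephb1 rose by 1.02 (SE 0.232, adjusted p = 0.0016), with 8.36 and 8.15 in P20 replicates 5 and 6 and 9.39 to 9.58 in the other P20 arrays, and differed by 0.60 without P20 replicates 5 and 6 and 1.54 with the clock covariate. Ephb4, the venous receptor of Efnb2, fell by 0.48 (SE 0.0626, adjusted p = 4.8e-06), and Epha7 fell by 0.37 (adjusted p = 0.00046).

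Cardiac transcription factor genes gave 7 rises and 6 falls among 24, the rises of small size except Klf15, a glucocorticoid-responsive regulator of amino acid and lipid genes, which rose by 0.74 (SE 0.104, adjusted p = 1.3e-05). Among the falls were the compact layer gene Hey2 (-0.45, adjusted p = 0.00066), Tbx3 (-0.42, adjusted p = 3.5e-05), Tbx5 (-0.37, adjusted p = 0.0066, a call that ended without P20 replicates 5 and 6, -0.27, adjusted p = 0.06), Tbx18 (-0.44, adjusted p = 1e-06) and Mef2d (-0.21, adjusted p = 0.00033, another probe called higher). The rises numbered 3 under quantile normalisation, 2 with the clock covariate and 4 without P60 replicate 4.

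Antigen presentation genes rose in 12 of 19 cases, and 1 of them, H2-Q4, fell, with a median of 0.48. The fall of H2-Q4 was not seen without P20 replicate 5 or 6 or P60 replicate 1 or 4. H2-Eb1, the beta chain of an MHC class II molecule, ran from 10.24 to 11.34 (median 10.90) at P20 and was 13.15, 12.49, 12.69, 12.77 and 12.53 at P60, a rise of 1.86 (SE 0.215, adjusted p = 1e-06). H2-Ab1 ran from 10.23 to 11.40 (median 10.96) and was 12.98, 12.45, 12.52, 12.68 and 12.45, a rise of 1.72 (SE 0.237, adjusted p = 9.1e-06). H2-Aa ran from 6.27 to 7.68 (median 7.19) and was 8.90, 8.31, 8.59, 8.997 and 8.19, a rise of 1.49 (SE 0.291, adjusted p = 0.00039). In all 3, no P60 array reached down to the P20 arrays, and P20 replicates 5 and 6 were the lowest.

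The class II chaperone gene Cd74 rose by 1.59 (SE 0.233, adjusted p = 1.9e-05), the loading factor gene H2-DMa by 1.02 (SE 0.202, adjusted p = 0.00046) and the class II transactivator gene Ciita by 0.92 (SE 0.228, adjusted p = 0.0032). Of class I genes, B2m rose by 0.84 (SE 0.17, adjusted p = 0.00054) and H2-K1 by 0.92 (SE 0.213, adjusted p = 0.0019), the latter with P60 replicate 3 below the highest P20 array. H2-K1, H2-D1 and H2-Q4 belong to a family of near-identical genes whose probes may read more than 1 of them. Of 7 macrophage markers, Cd14 rose by 0.35 (adjusted p = 0.0032) and the rest did not pass, and their sum ran from 13.16 to 13.64 at P20 and 13.34 to 13.63 at P60. B cells also carry class II. Of 4 B cell markers measured, 2 fell, among them Cd79b (-0.59, adjusted p = 8.1e-05). With the clock covariate 1 fell, and 1 fell without P20 replicates 5 and 6. Dendritic cells had no marker list. The part of macrophages, B cells or dendritic cells in the class II result was not tested.

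CCAAT lay in 80.0% of the 15 promoters of antigen presentation genes (11 of 13 matched members), against 37.4% of all promoters. The 150 bases before the start of H2-Eb1 and H2-Aa, whose genes rose among the most, are shown with CCAAT or ATTGG in capitals. This motif search was chosen after the values were seen.
H2-Eb1 (chr17:34305717-34305866, plus strand): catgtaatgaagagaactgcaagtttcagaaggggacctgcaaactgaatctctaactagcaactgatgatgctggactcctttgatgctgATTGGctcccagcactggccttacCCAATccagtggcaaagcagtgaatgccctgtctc
H2-Aa (chr17:34287824-34287973, minus strand): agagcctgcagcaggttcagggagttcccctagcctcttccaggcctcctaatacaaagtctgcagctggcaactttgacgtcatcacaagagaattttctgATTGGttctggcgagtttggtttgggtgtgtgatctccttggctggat

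Among other immune genes, complement gave 5 rises and 0 falls of 15. C3, the central component, ran from 9.70 to 11.79 (median 11.38) at P20 and was 13.48, 13.36, 13.34, 13.56 and 13.74 at P60, a rise of 2.54 (SE 0.374, adjusted p = 2.1e-05), and 1.99 without P20 replicates 5 and 6, which had the lowest values. C4b and Cfb rose by 1.11 (adjusted p = 0.00062) and 1.21 (adjusted p = 0.00022). Cfd, also a product of fat cells, rose by 2.41 (SE 0.79, adjusted p = 0.021), but P60 replicate 6 and P20 replicate 1 held its highest value of each age and also the highest sum of the 5 adipocyte markers, which ran from 7.40 to 9.65 at P20 and 8.92 to 11.41 at P60. Its call ended without P20 replicates 5 and 6 (2.28, adjusted p = 0.069), without P20 replicate 2 (1.99, adjusted p = 0.052) and without P60 replicate 6 (1.94, adjusted p = 0.069), and the difference was 3.66 with the clock covariate.

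Of 3 natural killer cell markers measured, Gzma rose by 2.15 (SE 0.317, adjusted p = 2e-05) and Nkg7 by 1.14 (SE 0.227, adjusted p = 0.00047), from signals well above background on 3 and 4 of 6 P20 arrays, and Prf1 differed by 0.051 (adjusted p = 0.78). With normexp background correction Gzma and Nkg7 differed by 0.68 and 0.35. Of 4 neutrophil markers measured, S100a9 (-1.22, adjusted p = 0.00037) and S100a8 (-1.12, adjusted p = 0.0094) fell, S100a8 being well above background on 2 of 5 P60 arrays, and S100a8 differed by -0.94 (adjusted p = 0.056) without P20 replicates 5 and 6 and by -0.18 (adjusted p = 0.17) with normexp background correction. Csf3r differed by -0.078 (adjusted p = 0.52), and by -0.19 (adjusted p = 0.044) in the authors' values, and Ly6g by 0.18 (adjusted p = 0.11), the latter called higher under quantile normalisation (0.22, adjusted p = 0.048), with scaling to the array median, in the authors' values and without P20 replicate 2. In the interferon response list, 7 of 32 rose and 4 fell, shares near those of all genes, with a median of 0.057. Gbp6, a guanylate-binding protein gene, ran from 7.14 to 7.78 (median 7.26) and was 9.85, 9.54, 9.73, 10.31 and 9.58, a rise of 2.47 (SE 0.172, adjusted p = 1e-09), and Ifi204, of the family of Ifi205, rose by 0.89 (SE 0.0795, adjusted p = 3.7e-08). Rsad2, an antiviral enzyme gene, fell by 0.81 (SE 0.215, adjusted p = 0.0053) and differed by -0.50 (adjusted p = 0.053) without P20 replicates 5 and 6. The list gave 9 higher and 1 lower with the clock covariate and 4 higher and 4 lower without those 2 arrays.

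Heat shock and chaperone genes rose with few exceptions, 16 of 20 with 0 falls and a median of 0.43. Hsph1, a large chaperone of the HSP110 family, ran from 10.55 to 10.84 (median 10.67) at P20 and was 11.62, 11.63, 11.69, 11.56 and 11.64 at P60, a rise of 0.95 (SE 0.0574, adjusted p = 1.5e-10). Hspb1, a small heat shock protein of the sarcomere, ran from 15.98 to 16.13 (median 16.04) and was 16.50, 16.52, 16.50, 16.56 and 16.42, a rise of 0.45 (SE 0.0592, adjusted p = 5.1e-06). Hspa5, the chaperone of the endoplasmic reticulum, ran from 14.54 to 14.82 (median 14.69) and was 15.17, 15.52, 15.25, 15.56 and 15.18, a rise of 0.65 (SE 0.0825, adjusted p = 3.2e-06). The ages were apart in all 3 genes, and in 14 of 20 members of the list with P60 higher, against 14.0% of all genes.

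Further small heat shock proteins rose as well, Hspb8 by 0.60 (adjusted p = 5.3e-08), Hspb6 by 0.58 (adjusted p = 5.3e-06) and Cryab by 0.54 (adjusted p = 0.00017), and so did the co-chaperone gene Bag3, by 0.51 (adjusted p = 1.5e-06), and Hsp90aa1, by 0.63 (adjusted p = 0.00013), or 0.42 with the clock covariate. Hspa1a, the inducible HSP70, rose by 0.71 (SE 0.22, adjusted p = 0.015) and was 9.26, 8.11, 8.47, 8.75 and 8.56 at P60, with P60 replicate 3 at the top of the P20 range of 7.77 to 8.11. Its call ended with the clock covariate (0.65, adjusted p = 0.066), without P20 replicates 5 and 6 (0.65, adjusted p = 0.061) and without P60 replicate 1 (0.55, adjusted p = 0.057). The ubiquitin ligase gene Fbxo32 rose by 0.36 (adjusted p = 0.0027).

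The heat shock element, searched as GAANNTTC, lay in 58.8% of the 17 promoters of these genes (9 of 13 matched members) against 7.86% of all promoters, a search chosen after the values were seen. The 150 bases before the start of 2 members, a small and an inducible heat shock protein, are shown with the element in capitals.
Hspb1 (chr5:135887769-135887918, plus strand): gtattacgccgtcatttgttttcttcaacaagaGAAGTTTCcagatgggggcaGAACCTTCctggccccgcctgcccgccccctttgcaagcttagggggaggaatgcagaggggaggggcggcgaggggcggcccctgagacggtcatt
Hspa1a (chr17:34972157-34972306, minus strand): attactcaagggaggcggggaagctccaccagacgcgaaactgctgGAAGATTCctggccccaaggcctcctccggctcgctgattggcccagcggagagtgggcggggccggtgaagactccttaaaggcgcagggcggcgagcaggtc

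Immediate early genes, which are switched on within minutes of a stimulus, rose in 11 of 14 cases with 0 falls and a median of 0.62. Leaving out P20 replicate 5, P20 replicate 6 or P60 replicate 6 gave 1 fall. Nr4a1, an orphan nuclear receptor, ran from 9.70 to 10.61 (median 10.13) at P20 and was 12.18, 11.61, 13.38, 12.43 and 12.88 at P60, a rise of 2.38 (SE 0.265, adjusted p = 6.5e-07). Atf3, a stress-induced factor, ran from 6.07 to 7.13 (median 6.56) and was 8.89, 7.58, 8.98, 8.49 and 8.20, a rise of 1.89 (SE 0.261, adjusted p = 9.7e-06). Egr2 ran from 5.14 to 5.77 (median 5.59) and was 6.73, 6.50, 7.06, 7.12 and 6.37, a rise of 1.20 (SE 0.165, adjusted p = 8.8e-06). All 3 were apart, yet the P60 arrays differed among themselves more than the P20 arrays did.

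Fos rose by 1.57 (SE 0.407, adjusted p = 0.0044), with P60 replicate 3, at 7.07, inside the P20 range of 6.14 to 7.36, and its call ended with the clock covariate and P60 replicate 6 left out together (an alternative chosen after the values were seen, 1.41, adjusted p = 0.082). Jun and Junb rose by 0.60 (adjusted p = 0.0017) and 0.51 (adjusted p = 0.00018), and Zfp36, which destabilises cytokine messages, by 0.88 (adjusted p = 0.0002). The cyclic AMP response element TGACGTCA lay in 1 of the 15 promoters of the list, that of Dusp1. A CArG box, the site of serum response factor, lay in 5 of 15, which belong to 2 of 11 matched members, Egr2 and Zfp36. Of all promoters, 1.79% held the first motif and 1.63% the second. Both searches were chosen after the values were seen.

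Of 22 members of the thyroid and steroid list, 6 rose and 4 fell, shares near those of all genes, and 3 rose under quantile normalisation and in the authors' values, while 2 fell without P20 replicates 5 and 6. Hsd11b1, which regenerates active glucocorticoid, ran from 8.62 to 9.69 (median 9.56) at P20 and was 10.88, 10.86, 10.90, 11.01 and 11.01 at P60, a rise of 1.65 (SE 0.198, adjusted p = 1.8e-06), with its lowest values in P20 replicates 5 and 6. Odc1, the first enzyme of polyamine synthesis and an androgen target, rose by 0.65 (SE 0.0576, adjusted p = 3.4e-08). Hr, a corepressor induced by thyroid hormone, fell by 0.64 (SE 0.0868, adjusted p = 7.4e-06), and the thyroid hormone receptor gene Thra differed by 0.016 (adjusted p = 0.8).

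Retinoid genes beside Lrat and Cyp26a1 included the receptor gene Rarg, which fell by 0.52 (SE 0.0818, adjusted p = 4e-05), and the receptor genes Rxra and Rxrg, which rose by 0.19 (adjusted p = 0.0013) and 0.40 (adjusted p = 0.001). Crabp1, a retinoic acid binding protein gene, rose from P20 signals that were all within background, with 3 of 5 P60 arrays above it (adjusted p = 4.1e-05). In all, 4 of 18 rose and 4 fell, with 2 rises under quantile normalisation, where Rxra differed by 0.083 (adjusted p = 0.11), and 8 falls with array weights. Of 8 aquaporin genes only Aqp8 and Aqp4 passed, in opposite directions; Aqp1, the channel of the endothelium, differed by -0.059 (adjusted p = 0.67).

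Among the remaining cell type lists, 3 of 6 genes listed for Schwann cells fell and 1 rose, with a median of 0.085. Sox10 (-0.67, adjusted p = 0.00012) and Gpr17 were lower and S100b higher (0.77, adjusted p = 5.4e-06). Gpr17, described above as a receptor of oligodendrocyte precursors, was not well above background on any P60 array. The falls numbered 2 with the clock covariate and 2 without P20 replicates 5 and 6. Of 5 red cell markers 2 fell, Hbb-b1 (-0.68, adjusted p = 0.015) and Hbb-b2 (-0.61, adjusted p = 0.018), near-identical genes whose probes may cross-read. Without P20 replicates 5 and 6 they differed by -0.51 (adjusted p = 0.094) and -0.42 (adjusted p = 0.13), so that none passed, and Hbb-b2 by -0.50 (adjusted p = 0.051) without P20 replicate 5 alone, while 5 fell with the replicate block. No lung epithelium marker was measured above the filter. Of the atrial markers, Nppa alone passed; Sln varied between 6.02 and 12.42 among P20 arrays and between 7.28 and 14.17 among P60 arrays.

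Clock genes differed between the ages and, within each age, between the arrays of different clock state, 2 higher and 5 lower of 18. Per3 ran from 9.48 to 10.37 (median 10.34) at P20 and was 8.48, 8.09, 7.54, 8.21 and 9.62 at P60, a difference of -1.67 (SE 0.342, adjusted p = 0.00063). Per2 was 9.17, 8.53, 8.25, 9.09 and 10.51 at P60 against 10.15 to 10.71 at P20, a difference of -1.41 (SE 0.291, adjusted p = 0.00069). In both, P60 replicate 6 lay within the P20 range and the other P60 arrays below it. Arntl rose by 2.35 (SE 0.583, adjusted p = 0.0032), or 0.57 with the clock covariate, which contains Arntl and Dbp, and Dbp differed by -1.44 without passing (adjusted p = 0.091), although it did pass without P20 replicates 5 and 6 (-2.19, adjusted p = 0.016), P20 replicate 6 (-1.77, adjusted p = 0.044) or P60 replicate 6 (-2.02, adjusted p = 0.014). With the clock covariate, Per2 differed by -0.68 (adjusted p = 0.015), Per3 by -0.65 (adjusted p = 0.0001) and Tef, a clock output gene that fell by 0.79, by -0.19 (adjusted p = 0.18), and the list gave 7 higher and 5 lower. Without P60 replicate 6 it gave 2 higher and 8 lower.

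Translation and splicing genes shifted slightly. Of 28 ribosome and translation genes, 16 rose and 1 fell, most by little; Eif4e, the cap-binding factor, rose by 0.57 (SE 0.0948, adjusted p = 8.6e-05). Eef1a1, the elongation factor of immature muscle, fell by 0.40 (SE 0.0715, adjusted p = 0.00015), and its adult muscle isoform Eef1a2 rose by 0.28 (adjusted p = 0.019), a call that ended without P20 replicate 6 (0.22, adjusted p = 0.053) and without P20 replicates 5 and 6 (0.16, adjusted p = 0.16). Of 18 splicing regulators, 8 rose and 0 fell, Qk by 0.58 (SE 0.0622, adjusted p = 3.5e-07) and Mbnl1 by 0.31 (adjusted p = 2.8e-05) with another Mbnl1 probe called lower. Quantile normalisation cut the rises to 6 and 4, and the authors' values to 4 and 3.

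Efnb1cKO ventricles, whose 12 arrays do not enter the WT means but share the estimate of spread, gave the same age contrast in the other genotype. The genotype by age interaction, the age difference in Efnb1cKO minus that in WT, passed for 14 of 35718 probes (0.0392%), and 1339 had an unadjusted p under 0.05. Among the genes named above Myh7 was the one that passed it. It rose by 1.11 in Efnb1cKO ventricles (adjusted p = 2.7e-08) against 2.62 in WT, an interaction of -1.50 (adjusted p = 1.6e-05), on the single probe named before. Other members are set side by side. Col1a1 differed by -1.26 in Efnb1cKO and -1.36 in WT ventricles, Col4a5 by -1.02 and -1.02, Igf2 by -1.72 and -1.77, and Bdh1 by 4.91 and 5.52. Among rising genes the pairs were Nppb at 2.34 and 1.90, Scn4b at 2.34 and 2.12, H2-Eb1 at 1.97 and 1.86, Hsph1 at 1.02 and 0.95, and Nr4a1 at 2.81 and 2.38. Acsm5 differed by 0.82 and 1.38 without passing the interaction (adjusted p = 1). A missed threshold does not show that the genotypes act alike.

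**Figure D5:**
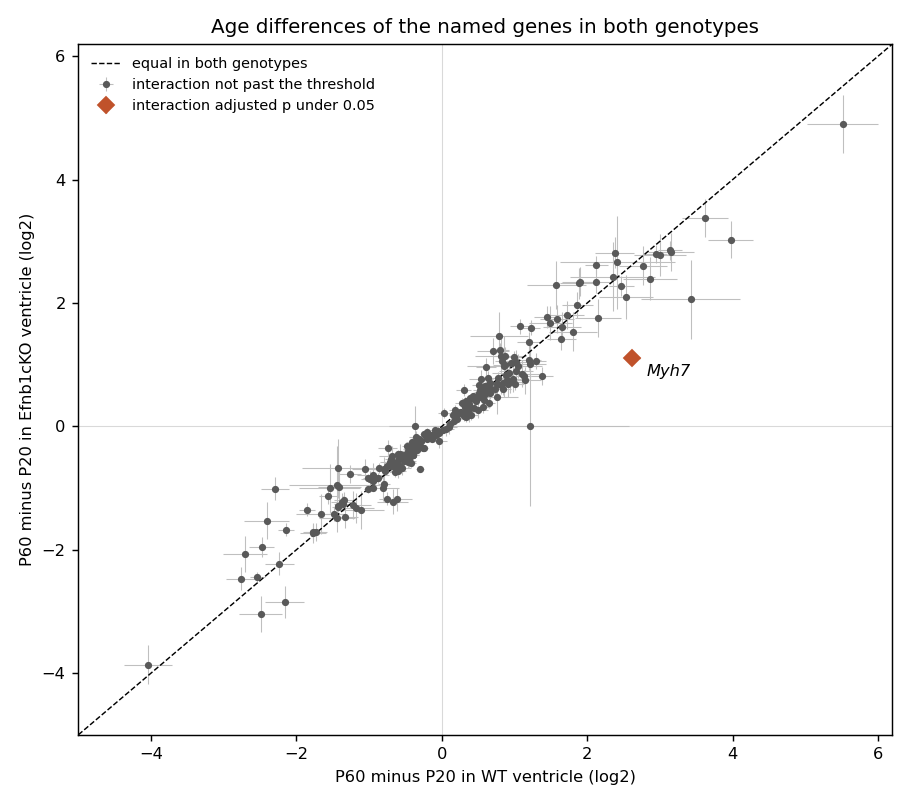
Difference P60 minus P20 (log2) of the named genes in Efnb1cKO ventricles (vertical axis, n = 6 and 6) against that in WT ventricles (horizontal axis, n = 6 and 5), with a dashed line where both are equal and standard errors as thin bars. Myh7, at 2.62 and 1.11, is the gene past the interaction threshold.

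Pearson r across probes between arrays of a group, a description in which all arrays share the same probes, lay between 0.9907 and 0.9959 among P20 arrays and between 0.9892 and 0.9956 among P60 arrays, lowest on average for replicate 6 of each age. The SD between arrays was larger at P20 for 19221 of 35718 probes (53.8%), with a median SD of 0.151 at P20 and 0.140 at P60. Without P20 replicates 5 and 6 the P20 median fell to 0.107, and without P60 replicate 6 that at P60 fell to 0.121, so the order of the ages in spread rests on those arrays. Among genes well above background on all WT arrays, the most variable at P20 were the atrial genes Sln, Myl7 and Myl4. Sln and Myl7 also led at P60, where Adamts6 and Tmem163 came before Myl4.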

How the data were processed

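Total RNA from single left ventricles was hybridised to Agilent 1-colour whole-genome mouse arrays on 3 slides. The deposited intensity values came from Agilent Feature Extraction 10.10.1.1, per the file headers, as a processed signal that is background-subtracted and spatially detrended within each array. Dim spots hold surrogate values in that signal, which compresses low levels. Over the WT arrays the 75th percentile of the processed signal ran from 444 to 612, 59.9% to 63.8% of spots were well above background, and 0 were saturated. The number of arrays limits the precision.

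Control spots and outlier flags were left out, spots of a probe were averaged, and each array was scaled to its 75th percentile before taking log2. Of 56605 probes, 35718 had 5 or more of the 23 arrays well above background and were tested with limma 3.58.1 (R 4.3.3; lmFit and eBayes), with a mean for each of 4 groups, so that all arrays share an estimate of the spread, and with Benjamini-Hochberg adjustment. Replicates are separate mice. The scripts were tested on simulated data.

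Lists used the brightest probe of each gene, and 846 of 896 listed genes were tested. The text names the 12 largest rises and the 12 largest falls among named genes whose age groups were apart (through the called probe of largest difference), key list members, other list members of largest change and cell type markers. Some genes that the rule allows are not reported here. The members and lists were chosen with earlier results of these data known. Probe positions are those of the file headers' build, mm9, and promoters are RefSeq's on GRCm38.p6; the builds were not mixed.

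Alternatives were background correction, scaling, quantile normalisation, the spot summary, filters, slide, place on the slide and replicate number as blocks, array weights, the variance prior, only WT arrays, 1 probe per gene, a clock covariate, leaving out arrays, and the authors' values. The latter are a deposited table of log2 values; how the authors made them is not stated, although each column has nearly the same distribution, with medians between 7.869 and 7.874. Each column correlated at 0.9902 to 0.9917 with the scanner values of its array, on a log2 scale that is not centred by gene. Python 3.11.15, pandas 2.3.3, numpy 2.4.6 and matplotlib 3.10.9 made the tables and figures.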

Additional observations from a re-analysis of the deposited data

Results flagged for a closer look

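In each named gene and age group, the highest or lowest WT array was compared with the range of its group by Dixon's criterion at 95%, which chance passes in about 1 of 20 groups. Of 526 groups 22 passed, and 7 of them were P60 replicate 6, the array whose clock state differed from the other P60 arrays and that held the most atrial transcripts. The values below are log2 levels, with no test.

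At P60, replicate 6 was highest in Ankrd1 (15.62). It was lowest in Cav3 (13.96), Cdkn1a (9.58), Efnb1 (11.18), Fbn2 (5.48), Myom1 (14.57) and Pfkp (11.27). Replicate 4 was lowest in Aqp1 (15.06), Hk2 (13.003) and Slc2a4 (16.04), replicate 5 highest in Aqp4 (6.54) and replicate 1 lowest in Cyp11a1 (0.95).

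At P20, replicate 6 was highest in Acads (13.31) and lowest in Bag3 (14.67) and Rab44 (4.30), and replicate 5 in Tcf21 (8.54). Replicate 4 was highest in Rmst (2.85) and lowest in Tchhl1 (1.04), replicate 3 was lowest in Bckdha (13.65), and replicate 2 was lowest in Cdkn2a (1.22) and Jun (11.58) and highest in Gbp6 (7.78). Rmst, Tchhl1, Cdkn2a and Cyp11a1 were not well above background on most arrays of the group concerned, so the order of their arrays carries no level.

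The age difference of Myh7 was smaller in Efnb1cKO than in WT ventricles by the interaction term of the limma fit, at -1.503 (adjusted p = 1.6e-05). It rests on 1 probe.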

How the results depend on the processing

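Of 244 named genes past the threshold, 206 kept their call under each of the 28 alternatives that tested their probe, and no called gene changed sign. Some probes, such as those of Cpxm2 and Lrat, were not tested under all 28. The count of probes past the threshold, 13084 here, stayed within 1.5 times of it under each alternative, from 8920 (1 probe per gene) to 14011 (array weights), with 10510 without P20 replicates 5 and 6, 11279 for normexp background correction, 12132 for quantile normalisation, 11902 with only the WT arrays and 11801 in the authors' values. With 1 probe per gene the count of lower probes was 4108 against 6470, since fewer probes are tested. Leaving out each WT array in turn gave 11595 to 12856 probes. The clock covariate gave 13144, of which 10681 were also called without it, and together with leaving out P60 replicate 6 (chosen after seeing the data) 11907. The interaction count of 14 was 5 among probes well above background on all 11 WT arrays, of which fewer are tested, and 9 for normexp background correction (both added after seeing the data). It lay between 12 and 18 under the other alternatives that fit both genotypes, at 17 under quantile normalisation and 14 without P20 replicates 5 and 6.

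Replicate numbers did not pair the arrays of the 2 ages: the correlations of same-numbered deviations were 0.0138, -0.0832, 0.2484, 0.1376 and -0.1076. With the replicate number as a block 13956 probes passed, 12646 of them shared, and no named gene lost its call. With slide as a block 12760 passed, and 99.6%, 99.9% and 97.4% of the called probes had the same direction within the 3 slides, a description from the arrays that made the calls.

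Neither Cdkn1a nor Dbp had passed, and both reversed with the clock covariate, to -0.67 and 0.57, and with the covariate and without P60 replicate 6, to -0.59 and 0.49; the covariate contains Dbp. Calls lost under quantile normalisation were Acadm, Eef1a2, Hadhb, Jph2, Nppa, Oxct1, Rxra and Tnni3, and in the authors' values Acadm, Eef1a2, Ghr, Hadhb, Jph2, Rxra and Tnni3. Quantile normalisation also moved called values by over 1.5 times without ending the call, to 0.20 in Hrc and Pkp2, 0.21 in Pdk2, 0.22 in Tnnc1, 0.18 in Ghr, -0.32 in Itgb1 and -0.25 in Myom1. With place on the slide as a block Bgn, Cfd, Cnn1, Hspa1a, Jph2, Kcnd3, Nppa, Tnni3 and Vcan were lost. With the clock covariate and without P60 replicate 6 the calls of 21 genes ended, Fos, Insr, Kcna5, Fbxo32 and Rmst among them. The cause was not tested. The size of dim differences depended on the background correction: with normexp, values of 36 named genes that had passed were smaller by over 1.5 times and none was larger, with 26 smaller by the median spot signal and 37 smaller and 4 larger in the authors' values. With normexp these included Hey2 (-0.19), Kcne1l (-0.34), Igf2bp3 (-0.43), Cfb (0.57), S100a9 (-0.54), Cdkn2b (0.51), Adra1a (0.37), Epha7 (-0.20), Dlk1 (-0.62), Ciita (0.58), H2-DMa (0.62), Egr2 (0.70), Pdk3 (-0.29), Cd79b (-0.38) and Sox10 (-0.42), of which none lost its call. Array signal, not depth, limits what was measured: differences between dim probes are compressed or known only as bounds.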
